A study of Arabidopsis thaliana with 6 samples.

Results

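The 6 genes described here are RBOHA, RBOHB, RBOHC, RBOHD, RBOHE and RBOHF of Arabidopsis thaliana, out of 27444 nuclear protein-coding genes. They were selected by name with earlier results of these data known, and a peak was counted for a gene when its summit lay inside the gene or within 3000 bp of either end. By that rule 25 of the 25032 peaks in 3 deposited lists belonged to the 6 genes, with 3, 12 and 10 peaks in lists 1, 2 and 3. Because the rule used the peaks themselves, all values at these genes are given as a description, with no test.

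Chromatin bound by PIF1 was precipitated with an anti-Myc antibody and sequenced (ChIP-seq). The tagged samples (PIF1-Myc) were whole seedlings of a transgenic line, P1M, that overexpresses PIF1 with a Myc epitope, and the background samples were wild-type (WT) seedlings without the tag, precipitated in parallel. All seedlings were germinated after 3 h of white light and harvested after 3 d in darkness at 21 °C, with 3 PIF1-Myc and 3 WT libraries, each pooled from 4 immunoprecipitations of 2 biological replicates. An overexpressed factor may occupy places that the native amount does not, and whole seedlings mix all cell types, including root hairs, guard cells and hypocotyl.

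RBOH proteins are NADPH oxidases of the plasma membrane. They pass electrons from NADPH in the cytosol to oxygen in the cell wall space and make superoxide, which is turned into hydrogen peroxide by dismutation. Calcium-binding EF hands and phosphorylation by several kinases switch them on, and the reactive oxygen they make serves immunity, stomatal closure, root hair growth and the cross-linking of cell walls. PIF1 is a basic helix-loop-helix factor that represses light responses and germination in darkness.

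After removal of excess duplicates the PIF1-Myc libraries held 5721184 to 14209334 tags and the WT libraries 6134032 to 17323572. List 1 came from the deepest pair of libraries, yet held 4578 peaks, against 12776 and 7678 in lists 2 and 3, and its median fold enrichment was 2.71, against 5.29 and 3.87. The false discovery rate (FDR) of the peak caller, made by swapping PIF1-Myc and WT, stood at 100% for every peak of list 1 and for 82.5% of list 3. Of the 25 peaks at RBOH genes, 13 had an FDR of 100% and 1, in list 2, had an FDR of 5% or less. Among all peaks, 0 of list 1, 1350 of list 2 and 5 of list 3 had an FDR of 5% or less. Fold enrichment, score and FDR are the authors' values for single peaks. Tags are those of the PIF1-Myc library alone, with exact 95% Poisson intervals that cover counting error only.

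RBOHF, RBOHC and RBOHD carried peaks in at least 2 lists, RBOHE in list 2 alone, and RBOHA and RBOHB in none. RBOHF had 7 separate sites, RBOHD and RBOHE had 3 each and RBOHC had 2, where a site is a run of overlapping peaks from any of the 3 lists. Of these 15 sites, 1 was held by all 3 lists, 7 by 2 lists and 7 by 1 list. Over the whole genome, 1390 sites were held by all 3 lists, 3455 by 2 lists and 13533 by 1 list. By gene, 4 of 6 RBOH genes had a peak in at least 1 list, and 73.3% of all protein-coding genes did. In at least 2 lists it was 3 of 6, with 40.5% of all genes, and in all 3 lists 2 of 6 (RBOHC and RBOHF), with 13.6% of all genes. RBOH genes are long (3848 to 7211 bp) and a long gene has a wider window. Among genes of at least 3500 bp, a class set after the data were seen, the 3 background shares were 80.7%, 49.1% and 18.2%. Without list 1 the number of sites was still 15, and 6 of them were held by both other lists. Without list 2 or without list 3, 2 sites were held by both remaining lists.

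By single list, 2 RBOH genes had a peak in list 1, 4 in list 2 and 3 in list 3. The background shares were 26.3%, 59.5% and 41.6% of all genes, and 33.6%, 66% and 48.4% of the long ones. A site held by at least 2 lists was found at 3 RBOH genes (29.7% of all genes, 33.3% of the long ones) and a site held by all 3 lists at 1 (9.38% and 10.5%). At least 2 sites were found at 4 RBOH genes (39.2% and 50.1%) and at least 3 at 3 of them (16.2% and 24.6%). A summit inside the gene itself was found at 4 RBOH genes in at least 1 list (28.9% and 45.8%) and at 3 in at least 2 lists (7.43% and 14.1%). The 6 genes were chosen with these lists known, so nothing is read from any of these differences.

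**Figure D1:**
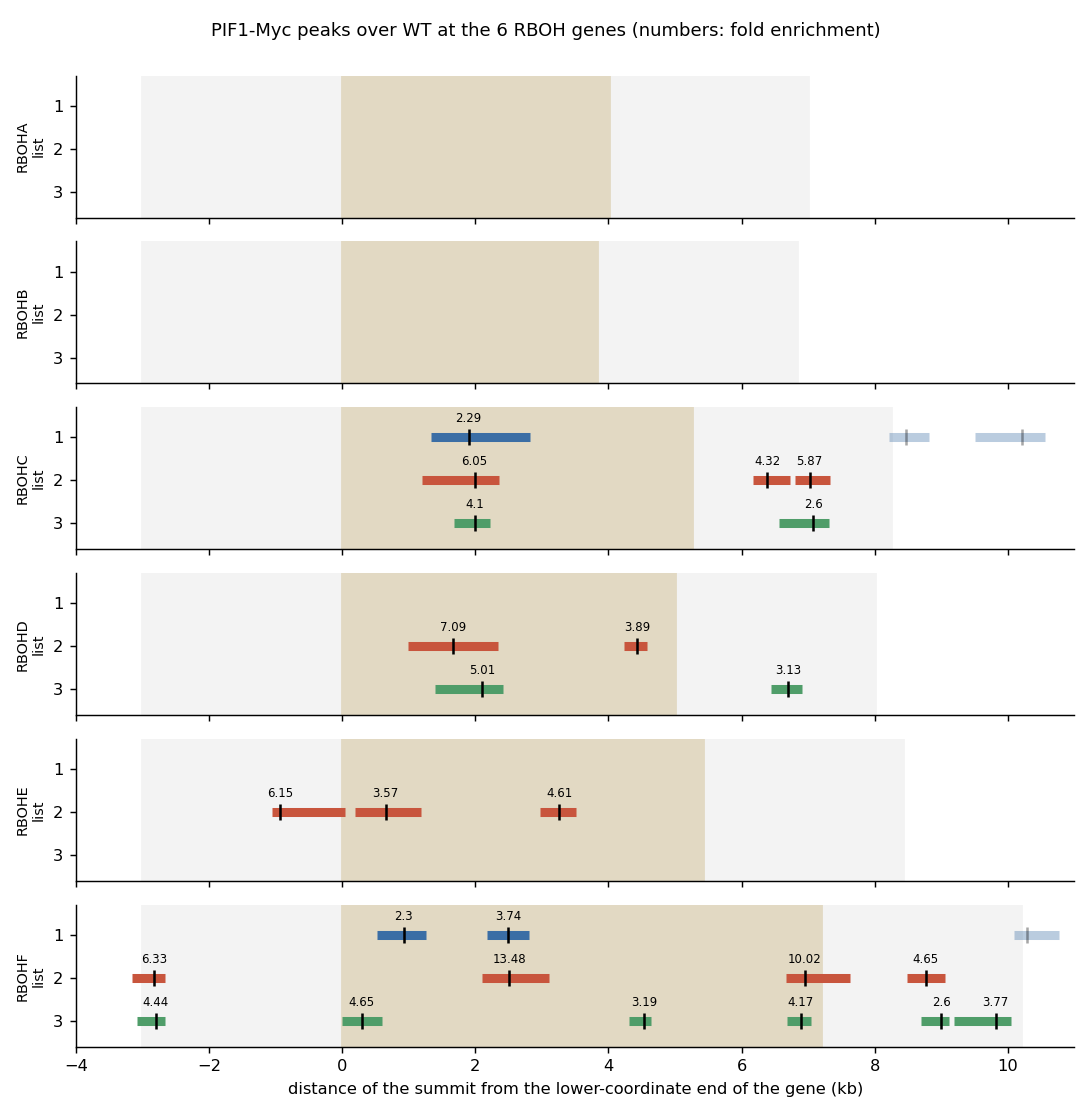
Peaks of PIF1-Myc over WT at the 6 RBOH genes, 1 panel per gene and 1 row per list. The x axis gives the distance from the lower-coordinate end of the gene in kb, coloured bars are peaks, black ticks their summits, numbers their fold enrichments, the tan band the gene and the grey bands the 3000 bp on either side. Faded bars are peaks whose summits lie beyond the window. RBOHA and RBOHB are empty, and RBOHC has the only site with a summit in all 3 lists.

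RBOHF (AT1G64060) encodes an oxidase that acts with RBOHD in stomatal closure by abscisic acid and in the lignin barrier of the root endodermis. Its strongest site lay inside the gene, at chromosome 1, 23771878 to 23772873 (TAIR10), with summits 2492 bp (list 1) and 2511 bp (list 2) from the lower-coordinate end. The peak of list 1 had 113 tags (interval 93.1 to 136), a fold enrichment of 3.74 and a score of 102.16. That of list 2 had 193 tags (167 to 222), a fold enrichment of 13.48, a score of 673.55 and an FDR of 2.03%. The 2 summits were 19 bp apart, and the peaks stood at percentiles 80.5 and 94.3 of fold enrichment within their own lists. List 3 held no peak there, so the strongest list-2 peak of the 6 genes had no counterpart in list 3. Over the 3455 sites of exactly 2 lists, 93.3% had a lower mean percentile than this site.

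At the other end of RBOHF, a site at chromosome 1, 23776438 to 23777396, ran across the higher-coordinate end of the gene. Its summit lay 257 bp inside that end in list 2 (195 tags, interval 169 to 224, 10.02-fold) and 320 bp inside it in list 3 (40 tags, interval 28.6 to 54.5, 4.17-fold). These peaks stood at percentiles 88.4 and 60.1 of their lists. At the lower-coordinate end, list 3 had a summit 293 bp inside the gene (4.65-fold) and list 1 had a summit 927 bp inside it (2.3-fold). These 2 peaks overlap and are counted as 1 site, but their summits were 634 bp apart, and 96.1% of the 3293 sites of 2 lists with 1 peak per list had a smaller spread. A further peak inside the gene, 4534 bp from the lower-coordinate end, was found in list 3 alone (32 tags, 3.19-fold).

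Outside RBOHF there were 3 sites, and each lay nearer to another gene. One at chromosome 1, 23766618 to 23767116, had summits 2824 bp (list 2, 6.33-fold) and 2798 bp (list 3, 4.44-fold) from RBOHF, but 782 and 808 bp from AT1G64050. Its summits were 26 bp apart, at percentiles 66.9 and 67.4. On the other side, the site at 23778254 to 23778894 had summits 1553 bp (list 2, 4.65-fold) and 1792 bp (list 3, 2.6-fold) away and lay inside AT1G64065, and a peak of list 3 alone (3.77-fold) lay 2607 bp away. The site near AT1G64050 and the peak at 2607 bp were the closest to the limit of 3000 bp from within, and a peak of list 1 with 2-fold enrichment lay just beyond it, at 3071 bp and inside RLM1. Over all genes 0.051% had 7 or more sites by the count that gave RBOHF 7, and 0.19% of genes of at least 3500 bp. RBOHF is 7211 bp long and the genes of at least 3500 bp had a median of 4447 bp. Its window was thus wider than that of most genes in either group, and genes of its own length were not compared. That count of 7 rests on the window and the peak threshold. It was 4 inside the gene alone, within 1000 bp or for the nearest gene only, 3 with a score of at least 100 or a fold enrichment of at least 5, and 1 with an FDR of 5% or less. Shares of all genes under these other settings were not computed.

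RBOHC (AT5G51060, RHD2 in the gene table) encodes the oxidase that drives root hair growth. It held the only site of the 6 genes that was found in all 3 lists, inside the gene at chromosome 5, 20758401 to 20760026. The summits lay 1900, 1989 and 1990 bp from the lower-coordinate end in lists 1, 2 and 3, or 36.1%, 37.8% and 37.8% of the way along the gene. The peaks had 274 tags (interval 243 to 308), 266 tags (235 to 300.0) and 59 tags (44.9 to 76.1). Scaled to peak length and to filtered library size, this was 12.9, 39.7 and 19.1 tags per kb of peak and per 1000000 tags. The medians over all peaks of lists 1, 2 and 3 were 13.3, 23.7 and 19.3. Fold enrichments were 2.29, 6.05 and 4.1, and FDRs 100%, 8.71% and 100%.

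The RBOHC summits of the 3 lists lay within 90 bp of each other. Of the 1211 sites of all 3 lists with 1 peak per list, 75.6% had a smaller spread. The percentiles of fold enrichment were 23.0, 63.3 and 58.6, so that in list 1 the site stood in the lower part of the list by this measure. By score the percentiles were 52.3, 85.9 and 62.6 in lists 1, 2 and 3. Of the 1390 sites held by all 3 lists, 7.63% had a lower mean percentile of fold enrichment than the 48.3 of RBOHC. The median of those sites was 82.1. A site with a summit of each of the 3 lists inside the gene was found for 1.24% of all protein-coding genes and for 1.86% of those of at least 3500 bp.

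The second RBOHC site, at chromosome 5, 20763375 to 20764528, lay beyond the higher-coordinate end. List 2 had 2 peaks there, 1121 bp (4.32-fold) and 1761 bp (5.87-fold) from RBOHC, and list 3 had 1 peak at 1811 bp (2.6-fold) that overlapped both. ERD1, which encodes a regulatory subunit of the chloroplast Clp protease, was nearer: its end was 514 bp from the first summit and the other summits lay inside it. Just beyond the window, at 3203 bp, list 1 had a peak of 2.51-fold inside ERD1. RBOHC had 1 site within 1000 bp, inside the gene alone or for the nearest gene only, 5 sites within 5000 bp and 0 with an FDR of 5% or less.

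RBOHD (AT5G47910) encodes the oxidase behind most of the burst of reactive oxygen that follows recognition of microbes. Its main site lay inside the gene at chromosome 5, 19398024 to 19399452. List 2 had a summit 1665 bp from the lower-coordinate end, with 240 tags (interval 211 to 272), 7.09-fold enrichment and an FDR of 8.91%. List 3 had a summit 2101 bp from it, with 108 tags (88.6 to 130.4), 5.01-fold enrichment and an FDR of 100%. List 1 had no peak at RBOHD. The percentiles, 74.1 and 77.2, were close to each other, but the summits were 436 bp apart, and 91.3% of the 3293 sites of 2 lists with 1 peak per list had a smaller spread. Of the list-3 peaks at the 6 genes, this one had the highest percentile.

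The other RBOHD peaks were weaker and were found in 1 list each. List 2 had 44 tags and 3.89-fold enrichment 593 bp inside the higher-coordinate end, at percentile 13.7. List 3 had 47 tags and 3.13-fold enrichment 1682 bp outside that end, inside AT5G47920, at percentile 21.4. With a score of at least 100 or a fold enrichment of at least 5, RBOHD had 1 site.

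RBOHE (AT1G19230) encodes an oxidase known from the tapetum of the anther. Its 3 sites all came from list 2. A peak with a summit 929 bp outside the lower-coordinate end had 141 tags (interval 119 to 166), 6.15-fold enrichment and an FDR of 25.17%. It was the only peak outside an RBOH member with no nearer protein-coding gene. Peaks inside the gene, 651 and 3261 bp from that end, had 121 and 49 tags and 3.57-fold and 4.61-fold enrichment, at percentiles 7.35 and 33.1. With a fold enrichment of at least 5 RBOHE had 1 site, and without list 2 it had no peak.

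RBOHA (AT5G07390), and RBOHB (AT1G09090), an oxidase known from seed after-ripening, had no peak inside or within 6000 bp in any list. The lists hold only peaks below a p cutoff of 1e-05, so enrichment under that limit was not detectable here. Of all protein-coding genes, 7332 had no site within 3000 bp.

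**Figure D2:**
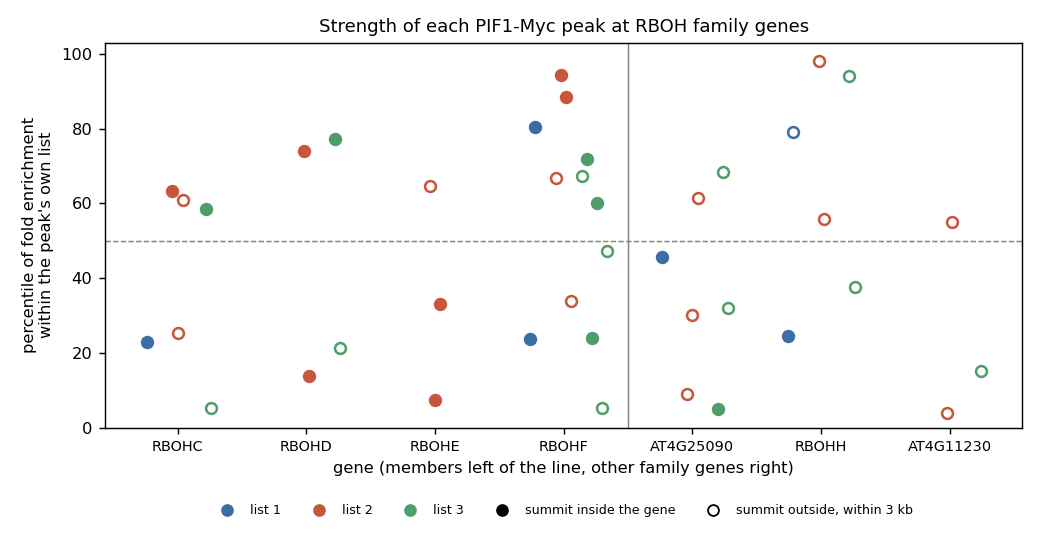
Percentile of fold enrichment of each peak within its own list, for the RBOH genes with a peak. Colours mark lists 1, 2 and 3, filled points are summits inside the gene, open points summits outside it and within 3000 bp, and the dashed line is percentile 50. Genes left of the vertical line are the members and genes right of it other loci of the family. At RBOHF the points span percentiles 5.11 to 94.3, and the 3 highest points of RBOHH, at percentiles 79.1, 98.0 and 94.1, belong to 1 site outside that gene.

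Over all 6 genes, the percentiles of the peaks ran over 23.0 to 80.5 in list 1, 7.35 to 94.3 in list 2 and 5.11 to 77.2 in list 3. The 3 peaks of list 1 had fold enrichments of 2.29 to 3.74 and a median of 2.3, where the median of list 1 was 2.71. The 12 peaks of list 2 ranged over 3.57 to 13.48 with a median of 5.96, where the list's median was 5.29. The 10 peaks of list 3 ranged over 2.6 to 5.01 with a median of 3.94, where the list's was 3.87. Above percentile 50 lay 1 of 3, 7 of 12 and 5 of 10 peaks.

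Of the 25 summits, 15 were inside an RBOH gene and 10 outside, and of the 10 outside 9 were nearer to another gene, 5 of them inside it. Inside were 3 of 3, 7 of 12 and 5 of 10 summits of lists 1, 2 and 3. Of all summits in these lists, 54.3%, 42.1% and 43.0% lay inside any protein-coding gene. That share is not the same measure, as it counts summits inside any gene, neighbours included. Of the RBOH summits inside, 2 of 3, 4 of 7 and 3 of 5 lay at least 1500 bp from both ends. Of all summits inside genes of at least 3500 bp, 38.9%, 24.7% and 28.7% did. Genes of that class had a median length of 4447 bp, and the RBOH genes with inner summits are 5021 to 7211 bp. A longer gene has more room at such a depth, so these shares are not like for like. The gene table gives no strand here, so the ends are not named as start or end of transcription, and exons and introns were not analysed.

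At the inner sites of highest mean percentile of RBOHC, RBOHD and RBOHF, the summits were 36.1% to 37.8%, 33.2% to 41.8% and 34.6% to 34.8% of the way from the lower-coordinate end. The other inner summits were at 88.2% in RBOHD and at 4.06%, 12.9%, 62.9%, 95.5% and 96.4% in RBOHF. At RBOHE the inner summits were at 11.98% and 60.01%. The share of inner summits of all genes at such positions was not computed. Without strand, these positions along the chromosome cannot be set against the direction of the genes.

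**Figure D3:**
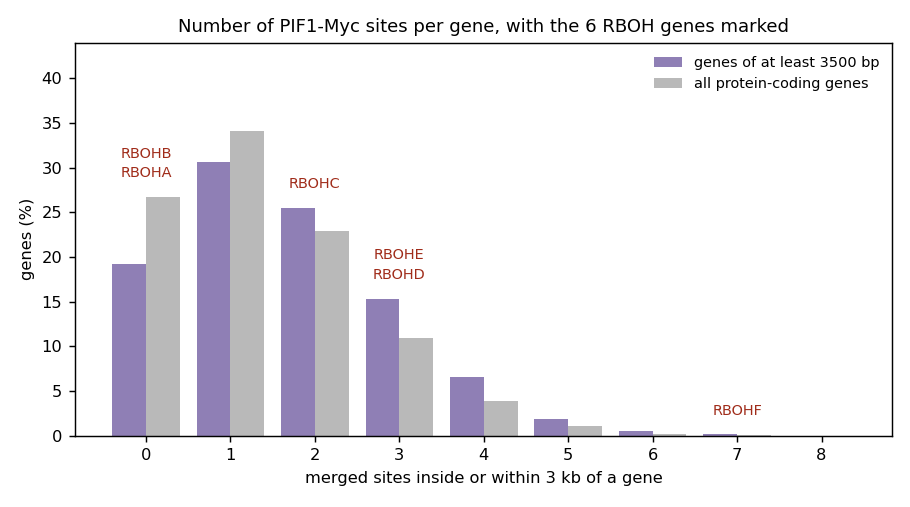
Share of genes (y axis, %) by the number of merged sites inside or within 3000 bp (x axis), for protein-coding genes of at least 3500 bp and for all protein-coding genes, with the 6 RBOH genes written above their number of sites. RBOHC, RBOHD and RBOHE sit at 2 to 3 sites, RBOHA and RBOHB at 0 and RBOHF at 7. The median was 2 sites for the long genes and 1 for all genes.

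The other 4 loci taken as the rest of the family were RBOHH and RBOHJ, oxidases of the growing pollen tube, and AT4G25090 and AT4G11230, which the gene table gives no other name. RBOHH (AT5G60010) had the site of highest mean percentile of the 10 genes, and it was found in all 3 lists, at chromosome 5, 24165375 to 24166045. The summits lay 661, 647 and 678 bp outside the higher-coordinate end in lists 1, 2 and 3, with 91, 160 and 110 tags and fold enrichments of 3.64, 19.97 and 8.28. RBOHH was the nearest gene to it. Unlike the RBOHC site, this site lay outside its gene, and its mean percentile was 90.4, above that of 70.3% of the sites of all 3 lists. Peaks of list 2 (5.58-fold) and list 3 (3.53-fold) lay 1551 and 2455 bp outside the higher-coordinate end of RBOHH, nearer to LAC17. RBOHJ had no peak within 3000 bp.

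AT4G25090 had peaks in all 3 lists but in different places. List 1 had a peak inside it (2.62-fold), while lists 2 and 3 shared a site at its higher-coordinate end and another 548 and 589 bp outside it (5.91-fold and 4.51-fold). That outer site lay inside FSD1, an iron superoxide dismutase gene, which shares 5 peaks with AT4G25090. List 2 alone had a peak (3.67-fold) 1842 bp outside the lower-coordinate end of AT4G25090, inside CHLM. AT4G11230 had a site beside its lower-coordinate end in lists 2 and 3 (3.33-fold and 2.96-fold), at percentiles 3.85 and 15.04 of fold enrichment. By score its peaks stood at percentiles 37.3 and 71.1, and the list-3 summit lay inside BTI2. List 2 also had a peak (5.54-fold) 1456 bp beyond the other end of AT4G11230, 29 bp from TOPP7. Like RBOHD and RBOHE, AT4G11230 had no peak of list 1.

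Other genes of reactive oxygen signalling were taken from 5 lists of 45 genes in all, written from general knowledge. These lists were also chosen with earlier results of these data known, so nothing is read from their differences from all genes. A peak within 3000 bp was found in at least 2 lists for 32 of the 45, in all 3 lists for 6 and in none for 2 (FSD2 and APX1). Shares for all protein-coding genes are given above (40.5% for at least 2 lists and 13.6% for all 3). The median was 2 sites per gene, against 1 over all protein-coding genes. Fold enrichments below are those of the best peak of a gene in each list. Best peaks of different lists can lie at different sites.

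Of 13 kinases and calcium sensors that act on RBOH proteins, 9 had peaks in at least 2 lists and 3 in all 3. CBL1, a calcium sensor that works with CIPK26 on RBOHF, had best peaks of 3.21-fold, 11.09-fold and 4.88-fold in lists 1, 2 and 3, and a site held by all 3. CPK11 had 2.95-fold, 5.5-fold and 3.9-fold, and CPK1 had 3.94-fold, 6.52-fold and 2.81-fold, both calcium-dependent kinases. The best peaks of CPK11 lay inside it in lists 1 and 2 and 1759 bp away in list 3. Those of CPK1 lay 1988, 226 and 209 bp away. OST1, the abscisic acid kinase of guard cells, had 6.93-fold and 4.97-fold in lists 2 and 3, at separate sites. BIK1, the kinase that phosphorylates RBOHD in immunity, had 3.61-fold and 4.15-fold in lists 2 and 3, at percentiles 7.94 and 59.7.

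Of 7 receptors upstream, 4 had peaks in at least 2 lists and 0 in all 3. They were LYK5, a chitin receptor (5.85-fold and 4.16-fold in lists 2 and 3), FLS2, the flagellin receptor (7.22-fold and 3.43-fold), FER, a receptor kinase of cell wall sensing and root hairs (5.27-fold and 3.27-fold), and BAK1, the co-receptor of FLS2 (4.56-fold and 3.06-fold). Of 5 ROP GTPases and partners, which control oxidases in root hairs, 3 had peaks in lists 2 and 3. These were ROP4 (4.89-fold and 6.12-fold), ROPGEF1 (6.62-fold and 3.7-fold) and ROP6 (4.65-fold and 3.06-fold). The peaks of ROP6 lay at separate sites.

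Of 12 genes that remove reactive oxygen, 8 had peaks in at least 2 lists and 2 in all 3, both of them catalases. CAT3 had 4.76-fold, 5.55-fold and 6.61-fold in lists 1, 2 and 3, and CAT2 had 2.17-fold, 11.94-fold and 5.8-fold. The best peaks of CAT3 lay 1435, 139 and 1455 bp from it. Those of CAT2 lay inside it in list 1 and 2731 and 773 bp away in lists 2 and 3. The copper/zinc superoxide dismutase genes CSD2 (7.21-fold and 5.72-fold) and CSD1 (7.85-fold and 4.29-fold) had peaks in lists 2 and 3. CAT1 and CAT3 share 1 peak.

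All 8 peroxidases and transcription factors on the last list had peaks in at least 2 lists, and 1 in all 3. ERF109, a factor induced by reactive oxygen, had 3.53-fold, 16.71-fold and 5.55-fold in lists 1, 2 and 3, and its 5 sites included 1 held by all 3 lists. UPB1, which represses peroxidases at the root tip, had 8.72-fold and 6.05-fold in lists 2 and 3. The cell wall peroxidases PRX33 and PRX34 had the same 2 best peaks (8.03-fold and 5.21-fold), which lay 2642 and 2743 bp from PRX33 and 1744 and 1643 bp from PRX34. Among the genes of root hairs, RHD6 had 7.34-fold and 3.03-fold in lists 2 and 3, at percentiles 76.0 and 17.9. RSL4, the factor that drives root hair growth, had 3.22-fold and 4.37-fold in these lists, at percentiles 2.58 and 65.5. No site of RHD6 was held by both of these lists.

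**Figure D4:**
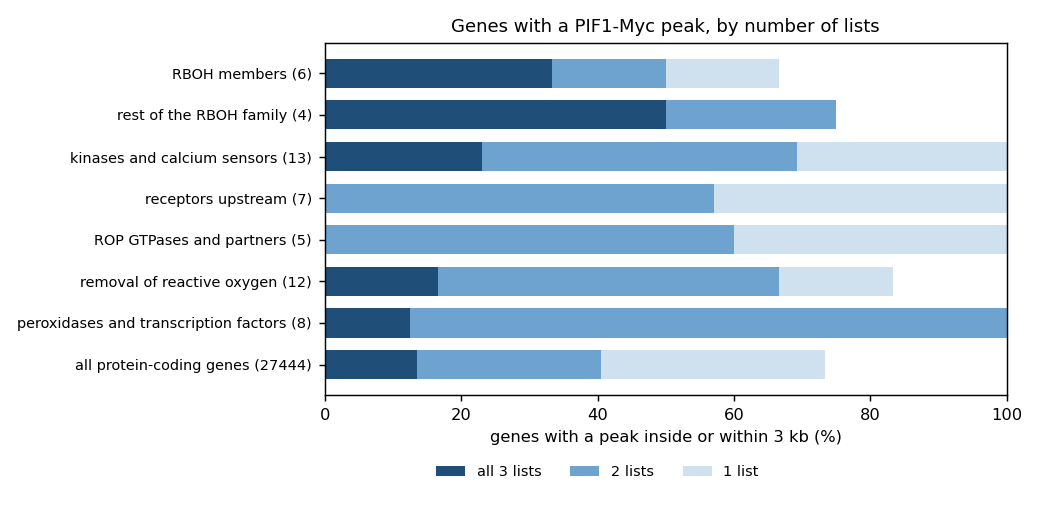
Share of genes (x axis, %) with a peak inside or within 3000 bp in all 3 lists, in 2 lists or in 1 list, for the 6 RBOH genes, the rest of the family, 5 lists of reactive oxygen genes and all protein-coding genes (gene numbers in brackets). Of the 6 RBOH genes 3 had a peak in at least 2 lists, and of the 8 peroxidases and transcription factors all did, where 40.5% of all genes did. All named genes were chosen with earlier results of these data known.

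The genes most like RBOHC and RBOHF in their percentiles were found among the other 3732 genes with peaks in all 3 lists. Likeness was the largest difference in percentile of the best peak over the 3 lists, for genes that share no peak with the RBOH gene. AT1G13310 was nearest to RBOHC, within 1.55 percentile points, with fold enrichments of 2.31, 6.01 and 4.12, and RTFL6 and AT4G35785, which have the same best peaks, followed at 3.996 points. Nearest to RBOHF were SK10, PEX22 and CYCP2;1, which have the same best peaks, within 1.62 points (3.82-fold, 12.77-fold and 4.73-fold). The best peaks of RBOHF itself lay at 1 site in lists 1 and 2 and at another site in list 3. With 3 lists such likeness rests on 3 values per gene.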

How the data were processed

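Tools listed in the submitters' processing notes were MACS 1.4.1, CASAVA 1.8.0 and Bowtie 0.12.7, with build TAIR10 and no stated role. Peaks were called with MACS, per the file headers. Each PIF1-Myc library was called against the WT library of the same number, not pooled, at a p cutoff of 1e-05, with an effective genome size of 150000000 bp and at most 3 or 4 tags per position, per the file headers. Redundant tags made up 13% to 70% of the PIF1-Myc libraries and 15% to 61% of the WT libraries, per the file headers. The deposited tag count of a peak is unscaled. The deposited score is 10 times the negative log10 of p. The deposited fold enrichment is a ratio to the local WT background after the smaller data set was scaled towards the larger, and the deposited FDR is in percent. Scaling and the limit on duplicates affect fold enrichments between lists, so these were ranked within a list only.

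Peak position was start plus summit minus 1. Gene ends and names came from a RefSeq gene table of assembly TAIR10.1, while the peaks are on TAIR10, so only distances are given and gene ends may differ between annotations. RBOHE, RBOHH, RBOHJ and several listed genes carry other or no symbols in that table (RBOHC is RHD2, CPK11 CDPK2, ROP4 ARAC5, ROP6 RAC3, PRX33 PRXCA, PRX34 PRXCB, ERF109 RRTF1) and are named here by their common names. As a check, 28.9% of sites of all 3 lists were inside genes at their own coordinates and 48.3% when shifted by 1000 bp. All 55 listed loci matched by locus code. No sequence was used here. WT tags per peak were not analysed, so no test beyond the authors' peak calls was made.

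The 6 genes, the other lists and the rule for named genes were chosen with earlier results of these data known. The rule named all 10 family genes, every gene nearer to a counted site, up to 4 genes per list by lists held and then mean percentile, and the 3 genes most like RBOHC and RBOHF. BIK1, RHD6, RSL4, FSD1, FSD2, APX1 and CAT1 were added after their values were seen. Counting scripts were tested on simulated data. Python 3.11.15, pandas 2.3.3, numpy 2.4.6, scipy 1.17.1 and matplotlib 3.10.9 were used. Alternatives changed the window, the peak threshold, the site rule, the position, the gene assignment and the lists used. The series text calls the libraries of a group biological replicates and the protocol has each pool material of 2 biological replicates. Whether libraries share seedlings is not given in the sources used here, so their spread may be in part technical.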

Additional observations from a re-analysis of the deposited data

How the results depend on the processing

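No paired analysis was possible because no result comes from a test across libraries, and each peak list already sets a PIF1-Myc library against the WT library of the same number. The count of 4 RBOH genes with a peak in at least 1 list changed by over 1.5 times only with an FDR of 5% or less, where it was 1. The 3 genes with peaks in at least 2 lists became 1 with a fold enrichment of at least 5. With the FDR limit they became 0. The 2 genes with peaks in all 3 lists became 0 under each of these limits and with a score of at least 100. List 1 has 0 peaks and list 3 has 5 with an FDR of 5% or less. Under that limit no gene at all could have peaks in all 3 lists, and few could in 2. Shares of all genes under these limits were not computed. The 15 sites became 8 with that score, 7 with that fold enrichment, 1 with the FDR limit and 9 inside genes alone, an alternative added after seeing the data. The 8 sites of at least 2 lists became 3, 1 and 0 under these 3 limits, and 5 inside genes alone, within 1000 bp, for the nearest gene only, and with sites joined by summits at most 150 bp apart. Leaving out 1 replicate gave 3 to 4 genes, 2 to 3 in at least 2 lists, 2 to 3 in every list used, 11 to 15 sites and 2 to 6 of at least 2 lists, the 2 without replicate 2 and also without replicate 3. Other windows, the midpoint and the other site rules kept these counts within 1.5 times. The p cutoff of the lists limits what can be seen at RBOHA and RBOHB.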

Other observations

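Some peaks lay between 3000 and 6000 bp from an RBOH gene in more than 1 list. At RBOHD, lists 2 and 3 had peaks 4811 and 4781 bp outside the lower-coordinate end, inside AT5G47900, with fold enrichments of 6.82 and 4.32 and percentiles of 72.0 and 64.2. At RBOHC, lists 2 and 3 had peaks 4856 and 4377 bp outside the lower-coordinate end, with fold enrichments of 4.43 and 3.66, nearest to SDHAF2 and APC2. These peaks were looked at after the values at the members were seen.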
